A study of Mus musculus with 9 samples.

Results

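The NEDD4 family genes described here are 9 genes of the mouse: the ubiquitin ligases Nedd4, Nedd4l, Itch, Wwp1, Wwp2, Smurf1 and Smurf2, and the membrane adaptors Ndfip1 and Ndfip2. They were taken from an array table of 22180 genes by their symbols, and all 9 were measured, each by 1 probe set. The family was chosen by the values of Nedd4, whose higher level in SRG3 cKO cells was already known, so that level is given as a description with no test. The other 8 genes in every comparison, and Nedd4 in RORgt KO cells, were tested. The test of Nedd4 in RORgt KO cells against WT shares its WT arrays with the known difference in SRG3 cKO cells.

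The study measured RNA of 9 Th17 cultures on GeneChip arrays, with 3 arrays from SRG3 cKO cells, 3 from RORgt KO cells and 3 from WT cells. SRG3, also called BAF155, is a core subunit of the SWI/SNF (BAF) chromatin remodelling complex and is encoded by Smarcc1. The conditional knockout targets Smarcc1, and the RORgt KO targets RORγt, the transcription factor that directs the Th17 programme. All 3 groups began as naive CD4+CD25- splenic T cells (CD44 low, CD62L high) and were cultured for 60 h on anti-CD3 and anti-CD28 (10 µg/ml each). The medium held TGF-β1 at 1 ng/ml, IL-6 at 30 µg/ml as the labels write it, and antibodies against IL-4 and IFN-γ at 2 µg/ml each. The Cre line and promoter of the SRG3 cKO, and the age and strain of the mice, are not given in the sources used here.

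Ubiquitin ligases of the NEDD4 family carry WW domains, which bind short proline-rich PPxY motifs on their targets and adaptors, and a HECT domain, which passes ubiquitin on through a cysteine. The tagged proteins are degraded, sorted to lysosomes or changed in activity. In T cells ITCH and the adaptor NDFIP1 are known to restrain activation and cytokine production, and NEDD4 to promote activation by acting on the ligase CBL-B. The SMURF proteins and NEDD4L are known for control of TGF-β signalling. In mouse Th17 cells ITCH has been described to ubiquitinate RORγt.

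Nedd4 lies on chromosome 9, and RefSeq lists 2 start windows for it, which are shown because Nedd4 is the member whose level differed between the genotypes. Each runs 5′ to 3′ from 250 bases before to 50 bases after an annotated start, on the plus strand of GRCm38.p6, chr9:72662081-72662380 for the first and chr9:72693048-72693347 for the second. Capitals mark matches, on either strand, to the motifs named after the sequences.

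Nedd4 window 1: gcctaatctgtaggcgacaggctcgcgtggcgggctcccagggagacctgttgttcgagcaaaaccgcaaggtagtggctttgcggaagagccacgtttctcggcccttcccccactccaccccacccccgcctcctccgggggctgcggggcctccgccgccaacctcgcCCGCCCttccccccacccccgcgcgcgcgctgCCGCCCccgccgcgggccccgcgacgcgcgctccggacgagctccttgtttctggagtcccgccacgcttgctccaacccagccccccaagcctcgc

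Nedd4 window 2: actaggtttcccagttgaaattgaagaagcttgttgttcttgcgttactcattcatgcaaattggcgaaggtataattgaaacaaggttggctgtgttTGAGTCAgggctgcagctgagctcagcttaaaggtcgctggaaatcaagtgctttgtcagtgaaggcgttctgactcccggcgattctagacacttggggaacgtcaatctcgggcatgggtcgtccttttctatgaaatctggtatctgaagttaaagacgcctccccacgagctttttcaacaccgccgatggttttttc

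The first window is rich in CG, with 35 CG dinucleotides and 73.0% G or C, and 93.0% of 32851 mouse windows of the same length held fewer CG. The second had 13 CG dinucleotides and 46.7% G or C, and 62.1% of windows held fewer. Of 3 motifs searched on both strands, GGGCGG (the GC box) matched 2 times in the first window, in capitals as its reverse complement, and was present in 35.7% of all windows. TGANTCA, the AP-1 motif, matched 1 time in the second window and was present in 7.81% of all windows. AGGTCA, the core of the motif bound by ROR proteins, matched neither window and was present in 16.3% of all windows. The probe set gives 1 value for the gene, so the use of the 2 starts was not measured. Windows of the members on 1 chromosome were left out beforehand, and 5 of the 9 genes had a window among the rest. A gene without a window here may therefore have an annotated start window. Besides Nedd4, the windows held 15 CG dinucleotides in Ndfip2, 49 in Smurf1, 43 in Smurf2 and 28 in Wwp2.

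Values are log2 intensities, and array medians were 7.12 to 7.14. Smarcc1, the gene targeted in the SRG3 cKO, had 8.47, 8.79 and 8.62 in SRG3 cKO arrays, 10.12, 10.04 and 10.19 in RORgt KO arrays, and 10.13, 10.32 and 10.40 in WT arrays. Il17a, the signature Th17 cytokine gene, averaged 8.50 in SRG3 cKO, 6.83 in RORgt KO and 10.69 in WT. Of the 5 Th17 markers, limma called 3 lower in SRG3 cKO against WT (Il17a, Il17f and Il23r), while Ccr6 differed by 0.02 (adjusted p = 0.946) and Il1r1 by -0.03 (adjusted p = 0.935). All 5 were lower in RORgt KO than in WT, and all 5 higher in SRG3 cKO than in RORgt KO. The 4 measured CD4 T cell markers of 5 listed lay above 92.6% of probe sets or higher, and limma, which fits a linear model with moderated variances to each gene, called 0 of them in any comparison at an adjusted p of 0.05, with 2, 1 and 1 at an unadjusted p under 0.05. All 4 were higher in the knockouts than in WT, by 0.18 to 0.27 in SRG3 cKO and 0.11 to 0.18 in RORgt KO. The medians over all genes were -0.0061 and -0.0027. Cd3g in SRG3 cKO against WT was just short of a call (limma adjusted p = 0.051). Of the measured markers of CD8 T (2), NK (3), γδ T (1), B (4) and myeloid cells (6) limma called 0 in each comparison, with 1 CD8 T cell marker in SRG3 cKO against WT and 2 myeloid markers in each of the other comparisons at an unadjusted p under 0.05. No erythroid marker was measured. In the 3 comparisons (SRG3 cKO against WT, RORgt KO against WT, SRG3 cKO against RORgt KO), 0.523%, 1.04% and 1.28% of genes passed (116, 230 and 283). These counts, and the p-values and intervals given here, come from a fit without pairs. The labels do not say whether array numbers mark shared mice or days. With the number as a block, 195 passed in the first comparison. In a principal component analysis, whose first axis held 28.8% of the variance, SRG3 cKO array 1 scored 3.98 on that axis (the others -3.27 and -2.06), RORgt KO array 3 scored 3.22 (9.82 and 12) and WT array 1 scored -1.38 (-10.5 and -11.8). Results were also computed without the arrays numbered 1, and with each array left out in turn. Without RORgt KO array 3, none of the 8 members other than Nedd4 was called. Nothing in bulk RNA tells fewer cells of a type from less RNA per cell.

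Nedd4 was the member with the widest spread, 1.54 log2 units over the 9 arrays, against 0.13 to 0.28 for each of the other 8. Its log2 intensity was 10.00, 9.81 and 9.85 in SRG3 cKO arrays, 8.87, 8.85 and 8.73 in RORgt KO arrays, and 8.68, 8.47 and 8.81 in WT arrays. All 3 SRG3 cKO arrays stood above all 6 others, while RORgt KO and WT arrays overlapped. The mean of SRG3 cKO was 9.89 ± 0.10, that of RORgt KO 8.82 ± 0.08 and that of WT 8.65 ± 0.17 (SD, n = 3 each). SRG3 cKO exceeded WT by 1.24 (2.35-fold), and by 1.32, 1.35 and 1.04 between arrays of the same number. SRG3 cKO exceeded RORgt KO by 1.07 (2.10-fold). Without the arrays numbered 1 these differences were 1.19 and 1.04.

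In RORgt KO, Nedd4 was 0.16 above WT (1.12-fold, 95% interval -0.03 to 0.36, limma adjusted p = 0.48) and did not pass. The choice of the family rested on the level of Nedd4 in SRG3 cKO cells, which was higher than in the same WT arrays. The fit that gave the error also included the SRG3 cKO arrays. The test in RORgt KO is therefore not fully independent of the choice. Between arrays of the same number, which the labels do not state to be pairs, the difference was 0.19, 0.38 and -0.08. Without RORgt KO array 3 the difference was 0.21 (adjusted p = 0.389).

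**Figure D1:**
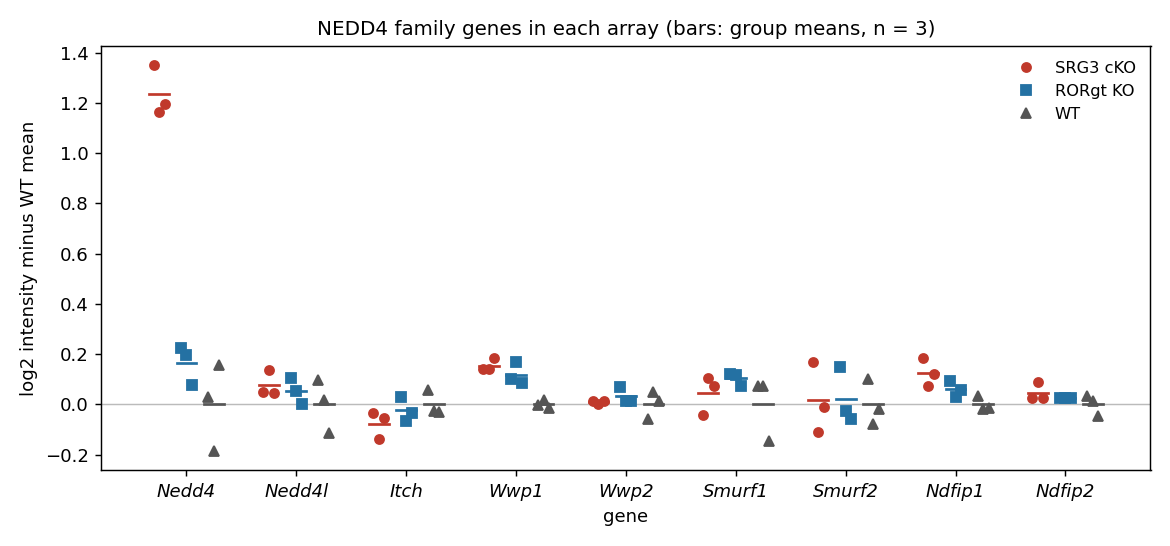
Log2 intensity of each NEDD4 family gene, minus its WT mean, in every SRG3 cKO (circles), RORgt KO (squares) and WT (triangles) array; short bars are group means of 3 arrays. The 3 SRG3 cKO arrays of Nedd4 lie far above all other points, and the points of the other 8 genes lie within 0.28 of each other for each gene.

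Nedd4l encodes the closest relative of NEDD4, known for the removal of the epithelial sodium channel and for action on SMAD proteins. It had 8.09, 8.17 and 8.08 in SRG3 cKO arrays, 8.14, 8.09 and 8.04 in RORgt KO arrays, and 8.14, 8.05 and 7.92 in WT arrays. The groups overlapped. Differences were 0.08 for SRG3 cKO against WT (95% interval -0.05 to 0.21, limma adjusted p = 0.669) and 0.05 for RORgt KO against WT (adjusted p = 0.761).

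Itch, whose product marks JunB and phospholipase Cγ1 in T cells, was the only member with a negative difference in both knockouts. It had 9.17, 9.07 and 9.15 in SRG3 cKO arrays, 9.23, 9.14 and 9.17 in RORgt KO arrays, and 9.26, 9.18 and 9.18 in WT arrays. All SRG3 cKO arrays lay below all WT arrays, by a margin of less than 0.01, and RORgt KO arrays overlapped with both. The difference was -0.08 for SRG3 cKO against WT (95% interval -0.18 to 0.03, limma adjusted p = 0.58), -0.02 for RORgt KO against WT (adjusted p = 0.882) and -0.05 for SRG3 cKO against RORgt KO (adjusted p = 0.731). None passed the threshold.

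Wwp1 encodes a ligase of the same subgroup as ITCH. It had 10.23, 10.23 and 10.28 in SRG3 cKO arrays, 10.19, 10.26 and 10.18 in RORgt KO arrays, and 10.09, 10.11 and 10.08 in WT arrays. All 6 knockout arrays lay above all 3 WT arrays, a pattern shown by 2.54% of all genes (564). SRG3 cKO was 0.15 above WT (1.11-fold, SE 0.04, 95% interval 0.07 to 0.24) and RORgt KO 0.12 above WT (1.09-fold, 95% interval 0.03 to 0.20). Neither passed after adjustment over all genes (limma adjusted p = 0.149 for SRG3 cKO and 0.231 for RORgt KO), and over 19 alternatives the adjusted p for SRG3 cKO ran between 0.111 and 0.383.

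Wwp2, the third gene of that subgroup, had 8.53, 8.52 and 8.53 in SRG3 cKO arrays, 8.59, 8.53 and 8.54 in RORgt KO arrays, and 8.46, 8.57 and 8.53 in WT arrays. The groups overlapped. The differences from WT were 0.01 for SRG3 cKO (limma adjusted p = 0.962) and 0.03 for RORgt KO (adjusted p = 0.807).

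Smurf1 and Smurf2 encode ligases that SMAD7 brings to the TGF-β receptor, whose ligand was in every culture. Smurf1 had 8.26, 8.40 and 8.37 in SRG3 cKO arrays, 8.42, 8.42 and 8.37 in RORgt KO arrays, and 8.37, 8.37 and 8.15 in WT arrays. Smurf2 had 9.23, 8.95 and 9.04 in SRG3 cKO arrays, 9.21, 9.03 and 8.997 in RORgt KO arrays, and 9.16, 8.98 and 9.04 in WT arrays. In both genes the groups overlapped, and in Smurf2 array 1 was the highest of each group. The largest of their differences was that of Smurf1 in RORgt KO against WT, 0.10 (95% interval -0.04 to 0.25, limma adjusted p = 0.557). For SRG3 cKO against WT, Smurf1 differed by 0.05 (adjusted p = 0.838) and Smurf2 by 0.02 (adjusted p = 0.963).

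The adaptors NDFIP1 and NDFIP2 span endosomal and Golgi membranes and recruit and activate the ligases through PPxY motifs. Ndfip1 had 10.38, 10.27 and 10.31 in SRG3 cKO arrays, 10.29, 10.22 and 10.25 in RORgt KO arrays, and 10.22, 10.18 and 10.18 in WT arrays. SRG3 cKO arrays all lay above WT arrays, and RORgt KO arrays overlapped with both. SRG3 cKO was 0.13 above WT (1.09-fold, SE 0.04, 95% interval 0.03 to 0.22), which did not pass after adjustment (limma adjusted p = 0.292, and 0.186 to 0.583 over 19 alternatives). RORgt KO was 0.06 above WT (adjusted p = 0.599).

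Ndfip2 had 8.30, 8.36 and 8.30 in SRG3 cKO arrays, 8.30 in all 3 RORgt KO arrays, and 8.31, 8.29 and 8.23 in WT arrays. The groups overlapped, with a difference of 0.05 for SRG3 cKO against WT (limma adjusted p = 0.704) and 0.02 for RORgt KO against WT (adjusted p = 0.848). The deposited value 8.2989 stands in 5 of the 9 arrays of Ndfip2, among them all 3 of RORgt KO, so the spread between replicates is not resolved there. The table also repeats values to 4 decimals in Wwp2 (4 arrays), Smurf1 (3) and Itch (2), and 56.0% of all genes have at least 2 equal values.

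Across the 8 members other than Nedd4, limma called 0 in SRG3 cKO against WT (2 at an unadjusted p under 0.05, Wwp1 and Ndfip1), beside 0.523% of all genes, 0.28% higher and 0.243% lower. At the unadjusted p, 11.2% of all genes passed. Differences ran between -0.08 and 0.15, 7 positive and 1 negative, with a median of 0.05, against -0.01 over all genes. The 95% intervals of all 8 lay within -0.18 and 0.24, or 1.13-fold lower to 1.18-fold higher. Of these 8, Wwp1 and Ndfip1 had all SRG3 cKO arrays above all WT arrays and Itch had them all below, beside 7.04% of all genes above and 6.56% below, or 13.6% in either direction.

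In RORgt KO against WT, limma called 0 of the 9 (1 of the 8 other than Nedd4 at an unadjusted p under 0.05, Wwp1), beside 1.04% of all genes, 0.694% higher and 0.343% lower. At the unadjusted p, 12.7% of all genes passed. The differences of the 8 ran between -0.02 and 0.12, again 7 positive and 1 negative, and their intervals lay within -0.16 and 0.25. Wwp1 alone had RORgt KO arrays above all WT arrays, and 6.9% of all genes did so. None of the 9 lay below all WT arrays, as 7.35% of all genes did, and 14.3% did either. Both knockouts are set against the same 3 WT arrays, so signs shared between them are not separate observations.

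Between SRG3 cKO and RORgt KO directly, limma called 0 of the 8 other members (0 at an unadjusted p under 0.05), beside 1.28% of all genes, 0.595% higher and 0.681% lower, and 11.1% at the unadjusted p. The differences ran between -0.06 for Smurf1 and 0.07 for Ndfip1, 4 positive and 4 negative, and the intervals lay within -0.20 and 0.18. For each of these 8 genes the 2 knockouts overlapped, while 7.79% of all genes had SRG3 cKO above, 6.82% had SRG3 cKO below and 14.6% had either. In no comparison did leaving out the arrays numbered 1 bring a call among these 8.

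**Figure D2:**
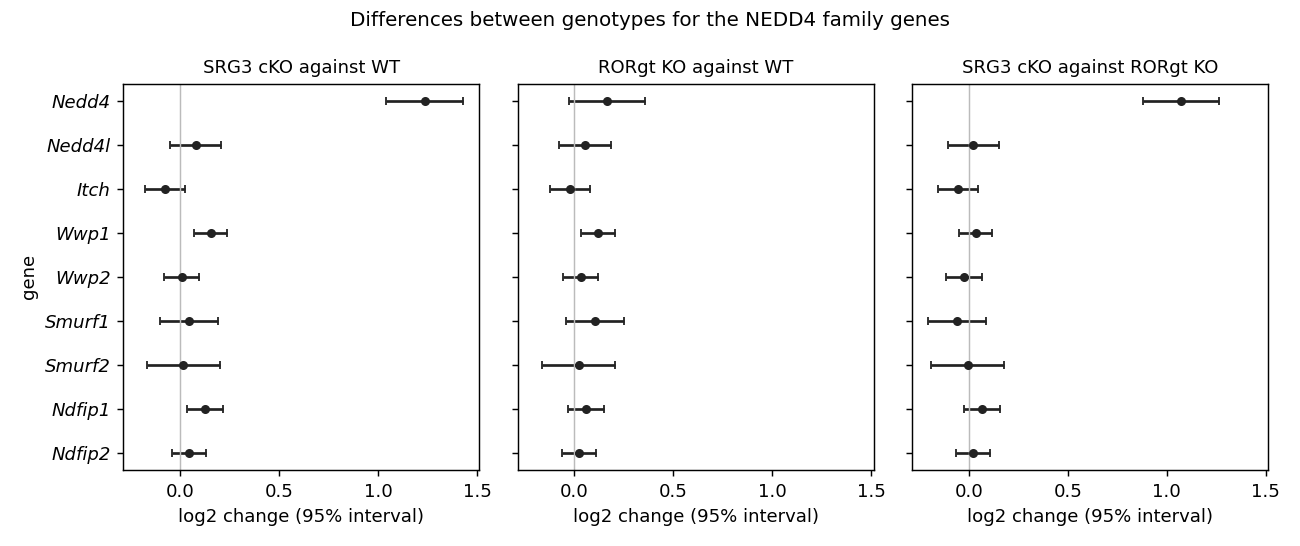
Log2 difference of each NEDD4 family gene with its 95% interval from the limma fit, for SRG3 cKO against WT, RORgt KO against WT and SRG3 cKO against RORgt KO, on a shared axis. Nedd4 stands at 1.24 and 1.07 in the 2 panels with SRG3 cKO, and the intervals of the other 8 genes end below 0.26 in all panels. The intervals of Nedd4 in those 2 panels are no test, since its SRG3 cKO level set the choice of the family.

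Other ubiquitin ligases of the HECT type had 1 gene called. Hectd2, which encodes a HECT ligase without WW domains, had 8.38, 8.34 and 8.24 in SRG3 cKO arrays, 8.17, 7.96 and 8.03 in RORgt KO arrays, and 7.86, 7.77 and 7.80 in WT arrays. The 3 genotypes did not overlap, with RORgt KO in the middle. Both knockouts lay above all WT arrays in 2.54% of all genes. Hectd2 rose 1.42-fold in SRG3 cKO against WT (log2 0.51, SE 0.06, limma adjusted p = 0.0119), and was 0.24 above WT in RORgt KO (adjusted p = 0.125). Without WT array 2, WT array 3 or SRG3 cKO array 1 the SRG3 cKO difference did not pass (0.49, 0.50 and 0.48).

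Of the 15 measured of 17 listed HECT ligases outside the family, 1 rose in SRG3 cKO against WT and 0 fell, beside 0.523% of all genes called. At an unadjusted p under 0.05 there were 4, beside 11.2% of all genes, and the median difference was 0.00. limma called 0 in RORgt KO against WT (5 unadjusted, beside 12.7% of all genes, median 0.04) and 0 in SRG3 cKO against RORgt KO (1 unadjusted, beside 11.1%, median 0.02). Hecw1 and Hecw2, NEDD4-type ligases known mainly from neurons, had 0 calls in the 3 comparisons (0 unadjusted). Hecw1 differed from WT by -0.01 in SRG3 cKO and 0.04 in RORgt KO, and Hecw2 by -0.04 and -0.10. The second probe set of Hecw1 averaged 7.23 in SRG3 cKO, 7.17 in RORgt KO and 7.24 in WT.

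Among 24 adaptors and partners of the ligases, all measured, 1 fell in SRG3 cKO against WT and 0 rose, beside 0.243% of all genes lower. At an unadjusted p under 0.05 there were 6, beside 11.2% of all genes, and the median was 0.06. Ldlrad4, whose product is a membrane protein with PPxY motifs that dampens TGF-β signalling, had 6.87, 6.95 and 6.68 in SRG3 cKO arrays, 7.71, 7.49 and 7.55 in RORgt KO arrays, and 7.33, 7.33 and 7.37 in WT arrays. SRG3 cKO arrays lay below and RORgt KO arrays above all WT arrays, as 6.56% and 6.9% of all genes did. Ldlrad4 was lower by 0.51 in SRG3 cKO than in WT (1.42-fold), and was 0.24 above WT in RORgt KO (limma adjusted p = 0.216). SRG3 cKO was lower than RORgt KO by 1.68-fold (-0.75). The list was drawn up with the fall of Ldlrad4 known, so the list gives no independent evidence of it. Its SRG3 cKO levels are therefore a description, and its calls, counted here, are no test. Without WT array 1, 2 or 3, or SRG3 cKO array 1 or 3, the difference from WT did not pass (-0.43 to -0.53). That from RORgt KO ran from -0.80 to -0.67 with 1 array left out.

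In the same list limma called 0 in RORgt KO against WT, with 11 of 24 at an unadjusted p under 0.05 and a median of 0.07, beside 12.7% of all genes at that unadjusted p. Directly between the knockouts 1 was higher and 1 lower in SRG3 cKO, beside 0.595% and 0.681% of all genes (2 unadjusted, beside 11.1%). The lower one was Ldlrad4, whose call is no test. The higher one was Tnfaip3, which encodes A20, an NF-κB inhibitor that works with ITCH, TAX1BP1 and RNF11. It had 10.08, 9.82 and 9.73 in SRG3 cKO arrays, 9.49, 9.42 and 9.41 in RORgt KO arrays, and 9.56, 9.43 and 9.39 in WT arrays. All SRG3 cKO arrays lay above the other 6, while 7.04% of all genes had them above all WT arrays and 7.79% above all RORgt KO arrays. Tnfaip3 was 1.35-fold higher in SRG3 cKO than in RORgt KO (0.43, SE 0.08, limma adjusted p = 0.042) and 0.42 above WT (adjusted p = 0.0781). The first call was lost in 7 of 9 fits that left out 1 array (0.33 to 0.46) and held without WT array 1 or SRG3 cKO array 3.

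Substrates of the ligases had calls in RORgt KO, where 2 of 26 measured of 27 listed rose and 0 fell, beside 0.694% of all genes higher. At an unadjusted p under 0.05 there were 8, beside 12.7% of all genes, and the median was 0.01. The 2 were Cblb and Plcg1. Cblb, a RING ligase that holds back T cell activation and is itself a target of NEDD4 ligases, had 11.13, 10.94 and 10.97 in SRG3 cKO arrays, 11.37, 11.54 and 11.15 in RORgt KO arrays, and 10.85, 10.60 and 10.42 in WT arrays. The 3 genotypes did not overlap, with RORgt KO highest and WT lowest, while 2.54% of all genes had both knockouts above all WT arrays. Cblb rose 1.66-fold in RORgt KO against WT (0.73, SE 0.12, limma adjusted p = 0.0267) and was 0.39 above WT in SRG3 cKO (adjusted p = 0.266).

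Plcg1 encodes phospholipase Cγ1, which relays T cell receptor signals and is a substrate of ITCH. It had 9.39, 9.37 and 9.37 in SRG3 cKO arrays, 9.40, 9.52 and 9.39 in RORgt KO arrays, and 9.23, 9.20 and 9.18 in WT arrays. All knockout arrays lay above all WT arrays, as in 2.54% of all genes. RORgt KO arrays lay only narrowly above SRG3 cKO arrays, with a lowest value of 9.3926 against a highest of 9.3912. Plcg1 rose 1.18-fold in RORgt KO against WT (0.23, SE 0.04, limma adjusted p = 0.0354), and was 0.17 above WT in SRG3 cKO (adjusted p = 0.149). Fits that left out 1 array lost the call of Cblb in 6 of 9 (0.63 to 0.73; WT arrays 2 and 3, SRG3 cKO arrays 2 and 3, RORgt KO arrays 1 and 2) and that of Plcg1 in all but the one without WT array 1 (0.20 to 0.26). limma called 0 of the substrates in SRG3 cKO against WT (4 at an unadjusted p under 0.05, beside 11.2% of all genes, median 0.04) and 0 between the knockouts (4 unadjusted, beside 11.1%, median -0.01).

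**Figure D3:**
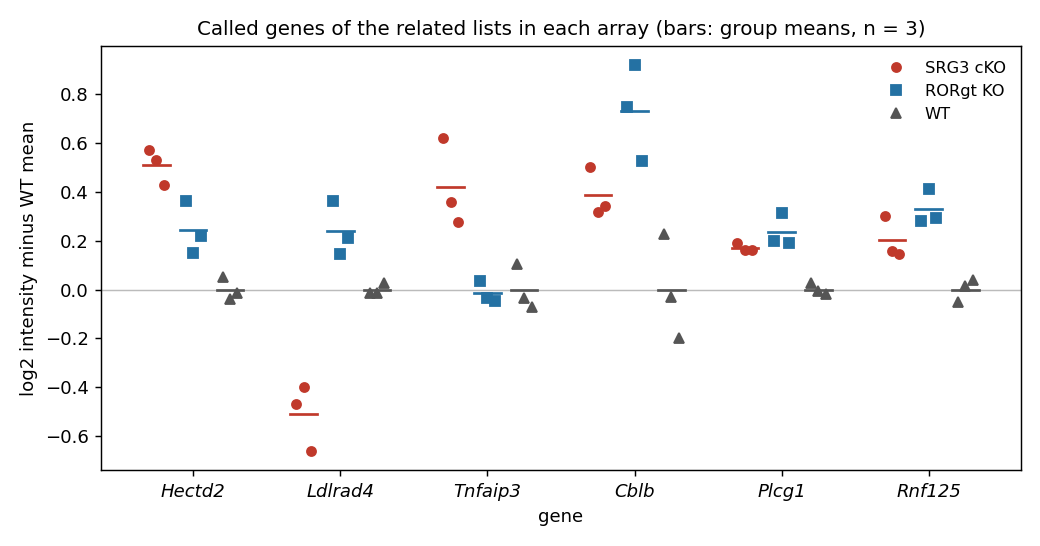
Log2 intensity minus the WT mean in every SRG3 cKO (circles), RORgt KO (squares) and WT (triangles) array for the 6 genes of the related lists that passed in any comparison; short bars are group means of 3 arrays. By group mean, SRG3 cKO is highest for Hectd2 and Tnfaip3 and lowest for Ldlrad4, and RORgt KO is highest for Cblb, Plcg1 and Rnf125. The calls of Ldlrad4 are no test, since its list was drawn up with its fall in SRG3 cKO known.

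Of the RING-type and other ligases of T cells, 18 of 20 were measured, and 2 rose in RORgt KO against WT, Cblb again and Rnf125, beside 0.694% of all genes higher. At an unadjusted p under 0.05 there were 3, beside 12.7% of all genes, and the median was 0.03. Rnf125, which encodes a RING ligase of T cells known to act on RIG-I, had 9.70, 9.56 and 9.55 in SRG3 cKO arrays, 9.68, 9.82 and 9.70 in RORgt KO arrays, and 9.35, 9.42 and 9.44 in WT arrays. All knockout arrays lay above all WT arrays, as in 2.54% of all genes. Rnf125 rose 1.26-fold in RORgt KO against WT (0.33, SE 0.06, limma adjusted p = 0.0302) and was 0.20 above WT in SRG3 cKO (adjusted p = 0.208). The call held in 1 of 9 fits that left out 1 array, the one without SRG3 cKO array 1 (0.29 to 0.35 in the others). limma called 0 of this list in SRG3 cKO against WT (3 at an unadjusted p under 0.05, beside 11.2% of all genes, median 0.02) and 0 between the knockouts (2 unadjusted, beside 11.1%, median 0.00).

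The enzymes that supply or remove ubiquitin, 19 measured of 21 E1 and E2 enzymes and deubiquitinases, had 0 calls by limma in each comparison. At an unadjusted p under 0.05 there were 1 in SRG3 cKO against WT, 3 in RORgt KO against WT and 3 in SRG3 cKO against RORgt KO, beside 11.2%, 12.7% and 11.1% of all genes. Their medians were -0.01, -0.03 and 0.03 in that order of comparisons.

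The genes beside Nedd4 on chromosome 9 were read to place its difference in its surroundings. Of the 5 annotated protein-coding genes on each side, 9 were measured: Tcf12, Zfp280d, Tex9 and Rfx7 on one side, and Prtg, Pygo1, Dnaaf4, Ccpg1os and Ccpg1 on the other. limma called 0 of the 9 in SRG3 cKO against WT, beside 0.523% of all genes. At an unadjusted p under 0.05 there was 1, beside 11.2% of all genes, and differences ran between -0.0042 and 0.31. The highest was that of Ccpg1os (adjusted p = 0.267). In RORgt KO against WT limma called 0, beside 1.04% of all genes (2 unadjusted, beside 12.7%, -0.06 to 0.23). Between the knockouts it called 0, beside 1.28% of all genes (0 unadjusted, beside 11.1%, -0.08 to 0.10). With so few genes, 0 calls lie near these shares. Smarcc1, the gene targeted in the SRG3 cKO, lies on the same chromosome, with 334 protein-coding genes between it and Nedd4 in the RefSeq order.

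**Figure D4:**
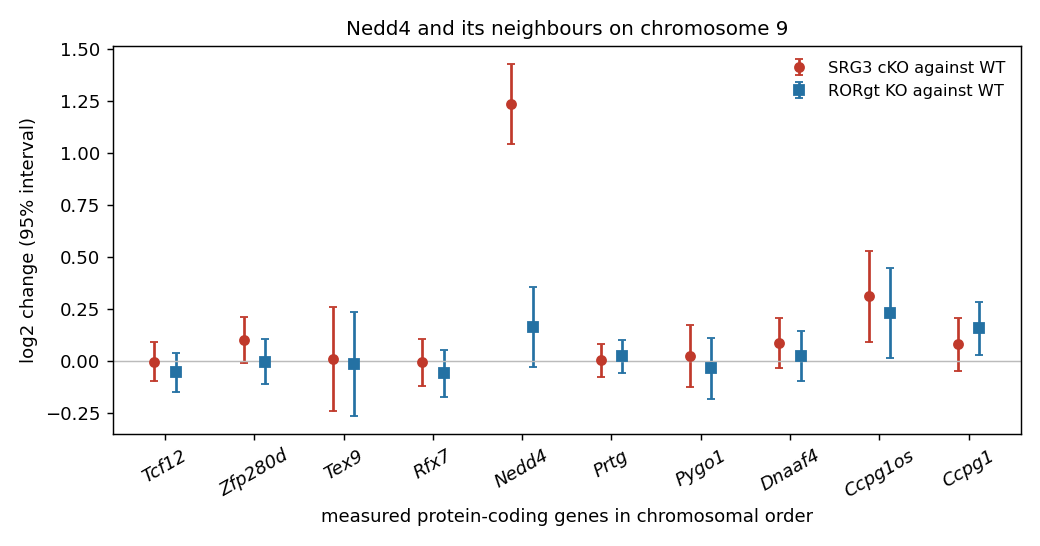
Log2 difference with its 95% interval for SRG3 cKO against WT (circles) and RORgt KO against WT (squares), for Nedd4 and its 9 measured protein-coding neighbours in chromosomal order. Nedd4 stands at 1.24 in SRG3 cKO, and its neighbours lie between -0.06 and 0.31 in both knockouts. The SRG3 cKO interval of Nedd4 is no test, since that level set the choice of the family.

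The 5 genes whose profile over the 9 arrays was most like that of Nedd4, by the root mean square difference of log2 values centred on each gene's mean, were Sdcbp2 (0.228), Gpr83 (0.251), Il18r1 (0.276), Mir29a (0.281) and Gnpda1 (0.281). The median over 22179 genes was 0.563, and a flat profile would have 0.557. Sdcbp2, for the scaffold protein syntenin-2, averaged 9.62 in SRG3 cKO, 8.89 in RORgt KO and 8.64 in WT. Il18r1, a subunit of the IL-18 receptor, averaged 8.08 in SRG3 cKO, 7.30 in RORgt KO and 7.45 in WT. In each of the 5 all SRG3 cKO arrays stood above the other 6, which the choice by likeness brings with it.

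**Figure D5:**
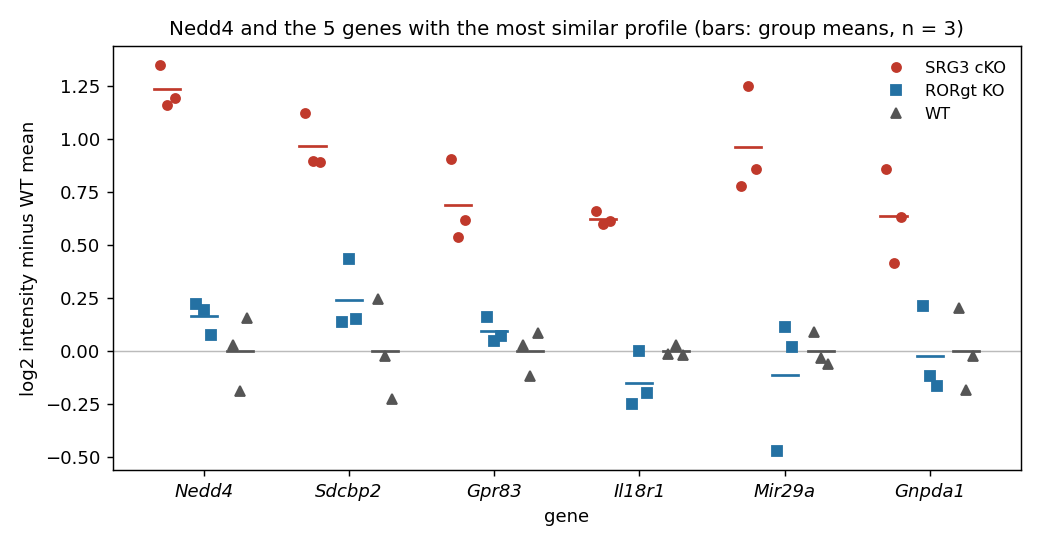
Log2 intensity minus the WT mean in every SRG3 cKO (circles), RORgt KO (squares) and WT (triangles) array for Nedd4 and the 5 genes most like it; short bars are group means of 3 arrays. SRG3 cKO arrays lie highest in each gene, by construction of the choice.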

How the data were processed

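RNA of 9 Th17 cultures was measured on GeneChip arrays. The deposited values are log2 intensities of 41345 probe sets; the correction, summarization and normalization behind them are not given in the sources used here, no background or detection value was used, and the number of arrays limits the precision. Of the probe sets, 23521 carry 1 gene symbol, 1814 several and 16010 none, and only the first were used; symbols were updated by gene ID (23328 matched) from the RefSeq table of GRCm38.p6. For the 1082 genes with several probe sets the one with the highest mean was kept. No sample column was left unused (0).

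Groups follow the genotype in the labels, where arrays of 1 genotype are named as biological replicates. limma 3.58.1 in R 4.3.3 was fitted to all 9 arrays, p-values were adjusted per comparison by Benjamini-Hochberg over 22180 genes, and a gene is called at an adjusted p under 0.05. SE and 95% intervals come from the fit. The members and lists were chosen with earlier results of these data known. Named genes were all 9 members, up to 4 called genes of each list, the 5 genes most like Nedd4, its neighbours, and Smarcc1 and Il17a as checks of the labels; the target of the RORgt KO was not used as a check.

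Deviations of arrays of the same number from their group means correlated by 0.287, 0.186 and 0.116 between SRG3 cKO and WT. The values were 0.215, -0.00527 and 0.186 between RORgt KO and WT, and 0.223, -0.00544 and 0.137 between SRG3 cKO and RORgt KO. The main fit used no pairs, and only the replicate block, an alternative, grouped arrays by number. Alternatives covered quantile normalization, centring, a filter on dim probe sets, the probe set rule, a trended robust variance, weights on arrays, fits of 2 groups alone, a replicate block and each array left out.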

Additional observations from a re-analysis of the deposited data

Results flagged for a closer look

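The effects of the 2 knockouts, which share their WT arrays, were compared directly, as SRG3 cKO against RORgt KO, where 1.28% of all genes passed (283). Among the 9 members and the genes of the related ubiquitin lists, 3 were under the threshold there, as follows. Nedd4 and Ldlrad4 were chosen with their SRG3 cKO levels known, so this count is not to be read against that share. Nedd4 was higher in SRG3 cKO by 1.07 in log2, a value given as a description because the family was chosen with it in view. Ldlrad4 was lower by 0.75 (log2 difference -0.7488), with SRG3 cKO below WT and RORgt KO above WT in all arrays. Its list was drawn up with the fall of Ldlrad4 in SRG3 cKO known, so its place here is a description and no independent evidence. Tnfaip3 was higher by 0.43 (limma adjusted p = 0.042), a call lost in most fits that left out 1 array. Groups of 3 arrays are too small for a test of single outlying arrays.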

How the results depend on the processing

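The count of genes called in SRG3 cKO against WT was 116, and became 13 with those 6 arrays alone, 195 with the replicate block, 1 without the arrays numbered 1, and 18 to 87 with 1 array left out. For RORgt KO against WT it was 230, and became 43 with those arrays alone, 374 with the replicate block, 25 without the arrays numbered 1, and 45 to 322 with 1 array left out. For SRG3 cKO against RORgt KO it was 283, and became 142 with those arrays alone, 368 with the replicate block, 16 without the arrays numbered 1, and 138 to 261 with 1 array left out. The setting without the arrays numbered 1 was chosen after seeing the data and leaves 2 arrays a group. In both comparisons with SRG3 cKO it took the members called from 1 to 0. That 1 was Nedd4, whose level in SRG3 cKO is given without a test. The replicate block brought no call among the 8 other members. Under all 19 alternatives the 8 members other than Nedd4 stayed uncalled against WT, and the log2 difference of Nedd4 was 1.14 to 1.31 in SRG3 cKO against WT, 1.01 to 1.11 against RORgt KO and 0.07 to 0.24 in RORgt KO against WT. Without the arrays numbered 1 none of the 6 called genes of the related lists passed. Small differences changed sign, and the cause was not tested. For SRG3 cKO against WT, Wwp2 was -0.0174 with quantile normalization, -0.0005 with array weights and -0.0241 without the arrays numbered 1, and Smurf2 -0.0025 with quantile normalization and -0.0111 without those arrays. With 1 array left out these 2 ran from -0.0223 to 0.0324 and from -0.061 to 0.079, and Smurf1 from -0.0285 to 0.0892. For RORgt KO against WT, Wwp2 was -0.0182 without the arrays numbered 1, and with 1 array left out Nedd4l ran from -0.0039 to 0.1032, Itch from -0.0498 to 0.0049 and Smurf2 from -0.0428 to 0.071. For SRG3 cKO against RORgt KO, Smurf2 was 0.0034 with centred arrays and -0.0821 to 0.0588 with 1 array left out, and Nedd4l -0.0058 to 0.0491.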

Other observations

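Array 1 was the highest of its group in all 3 groups for Itch, Smurf2 and Ndfip1, 3 of the 9 members, and for 7.23% of all genes.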
